A study of Mus musculus with 4 samples.

Results

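The nuclear-encoded respiratory chain genes are the genes of the cell nucleus that encode subunits of the enzyme complexes of the mitochondrial inner membrane. They were taken by symbol from a table of gene counts: symbols made of Nduf with a letter a, b, c, s or v and a number, Sdha to Sdhd, Uqcr with letters or numbers, Cox4 to Cox8 with their letter and isoform number, and Atp5 with letters or numbers. This gave 82 of 55536 genes, with 81 distinct symbols, since Atp5o names 2 entries. There were 35 genes of complex I, 4 of complex II, 8 of complex III, 17 of complex IV and 17 of complex V, and Atp5s was kept apart as an accessory gene. Ndufa4 was counted with complex IV, where its protein is now placed. The pattern leaves out some subunits, such as Cox4i1 and Cyc1, whose values are given from a separate list.

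The counts are from bulk RNA-seq of islets, in which the hormone-secreting cells of the pancreas gather. The mice were male, of strain C57BL/6 and 8 weeks old. There were 4 libraries in 2 groups of 2, without and with an insulin depletion panel that removes insulin sequences while the library is being prepared. Polyadenylated RNA was used in all 4 libraries. The labels call the 2 libraries of a group biological replicates and name no animals, so p-values here rest on the spread among the libraries, which may be technical. A tag for size selection stands in the column names of the non-depleted libraries alone, and a difference in size selection cannot be told apart from the depletion in any group difference below.

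The respiratory chain passes electrons from fuel molecules to oxygen. Complex I takes them from NADH, complex II from succinate, complex III hands them from ubiquinol to cytochrome c, and complex IV passes them to oxygen. Complexes I, III and IV pump protons, and complex V, the ATP synthase, uses the proton gradient to make ATP. In beta cells the ATP made from glucose closes potassium channels, which starts the electrical events that release insulin. Complexes I, III, IV and V also hold subunits encoded by mitochondrial DNA, so their assembly draws on both genomes.

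Total counts ranged from 19316173 to 65030111 per library, with 3 counts standing for 0.0463 to 0.156 CPM, the unit of all levels below (counts scaled to a common library total that leaves out Ins1 and Ins2). Values per library are given below for the non-depleted libraries first, replicate 1 and then replicate 2, and for the insulin-depleted ones next in the same way. Ins1 and Ins2 took 4.14%, 3.97%, 0.195% and 0.264% of counts. All 10 beta-cell markers and all 6 alpha-cell markers lay above 5 CPM in every library. The summed level of 17 acinar markers, from the digestive gland tissue around the islets, was 18799.7 CPM and 18813 CPM in the 2 libraries numbered 1 and 7777 CPM and 7830.0 CPM in those numbered 2. Summed muscle markers reached at most 3.73 CPM, with 1 of 6 at 0 in every library, and the 2 brown fat markers at most 1.82 CPM. In bulk RNA, fewer cells of a type and less RNA per cell cannot be told apart.

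Promoters of respiratory chain genes were examined first, since these genes are known targets of NRF1, of ETS-family factors such as GABP (also called NRF2) and of YY1. RefSeq promoter windows of 300 bases (GRCm38.p6, 250 bases before to 50 after the annotated start) matched 67 of the 81 symbols and gave 72 windows. Each motif was searched by its exact letters on both strands, and a stretch could count for more than 1 motif. The stretches below are shown because each holds an NRF1 motif and an ETS or CRE motif, and they were chosen after the search. Capitals mark NRF1 (GCGCA, any base, GCGC), ETS (CCGGAAG, or its reverse complement) and CRE (TGACGTCA) letters, and all are written 5′ to 3′ on the strand of the gene. Ndufa11 (complex I) is at chr17:56717597-56717717 (plus strand), Sdhd (complex II) at chr9:50603879-50603939 (minus), Cox6a1 (complex IV) at chr5:115348963-115349083 (minus), Atp5h (complex V) at chr11:115419944-115420064 (minus) and Atp5k (complex V) at chr5:108434380-108434459 (minus).
Ndufa11: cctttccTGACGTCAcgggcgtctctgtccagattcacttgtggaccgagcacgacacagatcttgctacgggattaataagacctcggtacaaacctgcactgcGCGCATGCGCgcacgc
Sdhd: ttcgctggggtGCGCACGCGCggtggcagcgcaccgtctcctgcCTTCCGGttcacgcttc
Cox6a1: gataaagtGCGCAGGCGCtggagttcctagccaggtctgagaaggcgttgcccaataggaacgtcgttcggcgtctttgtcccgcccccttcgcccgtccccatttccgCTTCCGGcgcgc
Atp5h: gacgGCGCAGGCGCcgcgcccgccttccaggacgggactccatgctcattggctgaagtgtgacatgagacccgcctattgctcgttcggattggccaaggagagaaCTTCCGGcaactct
Atp5k: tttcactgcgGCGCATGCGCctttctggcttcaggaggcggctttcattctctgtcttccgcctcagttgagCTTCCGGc

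The NRF1 letters were in 18 of 72 member windows, 25.0%, and in 6.31% of 21191 windows of other protein-coding genes. Over all 32851 windows of the table the NRF1 share was 4.603%. The ETS letters were in 22.2% of member windows and 11.5% of those of other protein-coding genes, with 8.86% over all windows. YY1 letters (AA, any base, ATGGCGG) were in 8.33% and 1.91%, with 1.36% over all windows. On the strand of the gene alone the ETS shares lay close together, at 6.94% of member windows and 6.30% of those of other protein-coding genes, while NRF1 letters were in 18.1% and 3.99% and YY1 letters in 6.94% and 1.29%. The CRE letters were in 5.56% of member windows against 2.22%, and over all windows in 1.79%. The GC box (GGGCGG) was in 38.9% against 46.2%, and over all windows in 35.7%. The TATA letters (TATAAA) were in 11.1% against 12.6%, and over all windows in 13.6%. Whether any of these shares differed between members and other genes was not tested.

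At least 1 of the NRF1, ETS and YY1 motifs was in 34 of 72 member windows, 47.2%, and in 17.9% of windows of other protein-coding genes. By complex the count was 15 of 33 windows in complex I, 3 of 3 in complex II, 3 of 5 in complex III, 3 of 13 in complex IV and 10 of 17 in complex V. Windows of 4 members overlap, and 1 NRF1 site of Ndufa5 lies in both of its windows. Counted once each, 19 of 23 NRF1 sites and 16 of 19 ETS sites began within 100 bases of an annotated start. YY1 sites differed in place, 5 of 6 lying after the start. Sdha, the flavoprotein subunit of complex II, held 3 NRF1 sites, and so did Ndufb4. A match is a description of these letters and not a measured binding site. The members for which no window was used include Atp5a1, Atp5mpl, Cox6a2, Cox6c, Cox6c2, Cox8c, Ndufa2, Ndufb9, Ndufs1, Sdhc, Uqcrb, Uqcrc2 and Uqcrq.

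**Figure D1:**
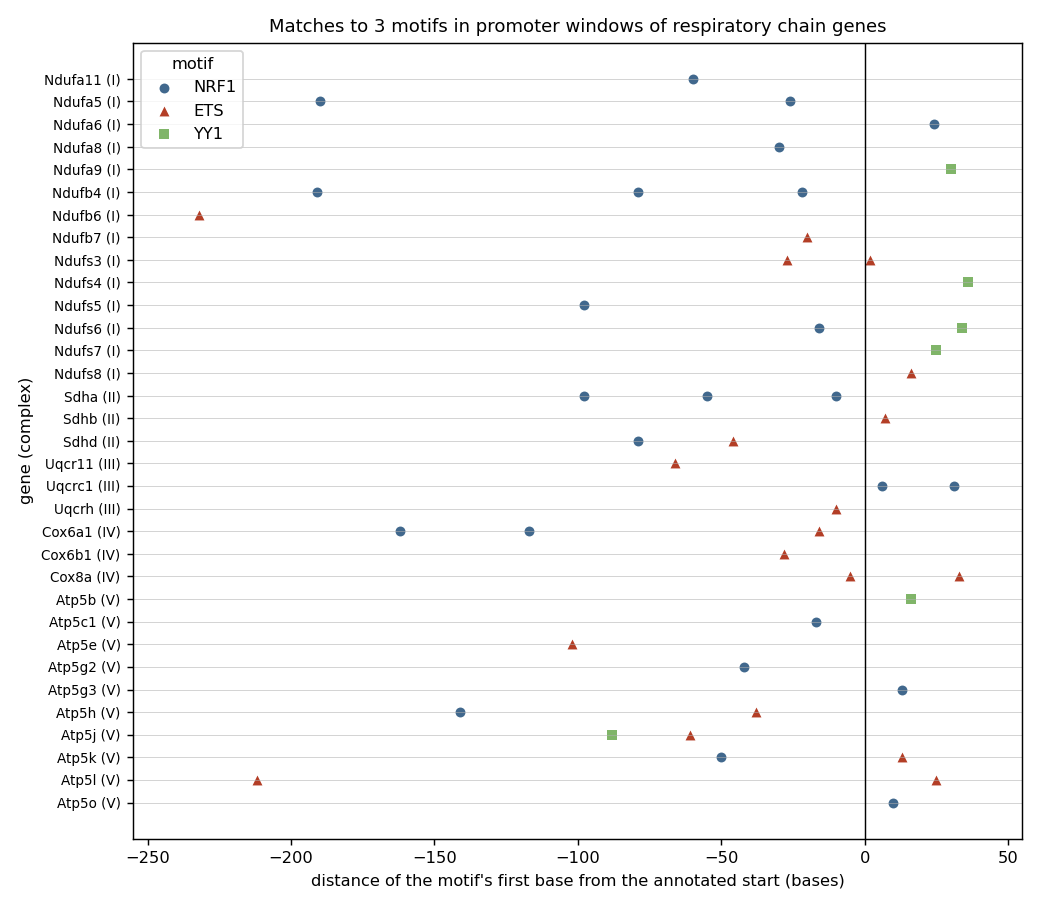
Positions of NRF1 (circles), ETS (triangles) and YY1 (squares) motif matches on either strand in the promoter windows of respiratory chain genes, 1 row per gene with its complex; 1 NRF1 site of Ndufa5 is drawn from each of its 2 starts. The x axis gives the distance in bases from the annotated start (vertical line); most NRF1 and ETS matches lie within 100 bases of it, and 5 of 6 YY1 matches lie after it.

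Most respiratory chain genes were expressed in the islets. Of the 82, 75 had a mean of at least 5 CPM over the 4 libraries, from 5.21 CPM (Cox6a2) to 463 CPM (Atp5a1), and 77 passed the filter on low counts. The 5 that did not pass were Cox6c2, Cox7b2, Cox8b, Cox8c and the second Atp5o entry. Cox8b and Cox8c had 0 counts in every library, and so did the second Atp5o entry, a model of 530 bases that shares 94.0% of its 31-base stretches with other genes. Some counts are uncertain: of the 77, 17 share at least 20% of their 31-base stretches with other genes, and exons of 24 overlap those of an antisense gene, where the use of strand decides which gene is counted. Exons of 5 overlap those of a same-strand gene, where strand does not tell the genes apart. The summed level of all members was 5385, 5068, 5314 and 5009 CPM. Both libraries numbered 1 were thus above both numbered 2, and the groups overlapped.

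Levels of different genes are compared per kilobase of annotated exon, as the mean ± SD over all 4 libraries. Ordered this way, 64 of 76 neighbouring pairs of the 77 genes lay closer than their SD, so the order is firm only across wider gaps. The median gene had 29.7 CPM per kilobase. The top of the order was Atp5a1 with 148 ± 2.18, Cox8a with 129 ± 5.82, Cox6b1 with 123 ± 4.86 and Atp5b with 109 ± 1.23 CPM per kilobase. Exon length weighs on this order, because long rarely used exons lower a gene's value. Per kilobase of the principal transcript instead, a choice added after seeing the data, Atp5b led with 242 ± 2.72, followed by Atp5a1 with 187 ± 2.76 and Uqcrb with 177 ± 8.69 CPM per kilobase.

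Complex I summed to 1523, 1475, 1527 and 1447 CPM. Its subunits of highest level were Ndufc2 with 92.1 ± 3.48 and Ndufa1 with 90.3 ± 6.68 CPM per kilobase, both small accessory proteins of the membrane arm. The core subunits, which carry the flavin, the iron-sulphur clusters and the quinone site, spread over a wide range of per-kilobase levels. Among them were Ndufs3 with 30.3 ± 2.05, Ndufv2 with 28.9 ± 0.520, Ndufs8 with 25.3 ± 1.10 and the flavin-binding Ndufv1 with 24.1 ± 0.756 CPM per kilobase. Ndufs7 with 11.5 ± 1.15 and Ndufs1, the largest iron-sulphur subunit, with 10.5 ± 0.230 CPM per kilobase did not differ from each other beyond their SD. Per kilobase of principal transcript they did, in the other order, with Ndufs1 at 31.9 ± 0.700 and Ndufs7 at 20.1 ± 2.00. Ndufb2 was lowest of the complex with 1.12 ± 0.0885 CPM per kilobase of exon, and also per kilobase of principal transcript with 1.44 ± 0.114. Both lengths are long beside its 315 coding bases, at 5628 bases of exon and 4371 of principal transcript. An exon of Ndufb2 also overlaps one of the same-strand gene Gm42420, so its low value is uncertain. Ndufb5 (6.48 ± 0.759), Ndufb7 (6.96 ± 0.371) and Ndufc1 (7.19 ± 0.432 CPM per kilobase of exon) followed within their SD of each other; per principal transcript Ndufb5 stood at 30.0 ± 3.51 and Ndufc1 at 8.61 ± 0.517.

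All 4 subunits of complex II are nuclear-encoded, and they summed to 436, 453, 443 and 462 CPM. Sdha, which holds the flavin and oxidises succinate, had 251, 272, 250.1 and 278 CPM, with the libraries numbered 2 above those numbered 1 in both groups. Per kilobase Sdha had 63.6 ± 3.44 CPM and Sdhd, a membrane anchor, 61.8 ± 3.10 CPM. The other anchor, Sdhc, had 20.2 ± 0.809 and the iron-sulphur subunit Sdhb 19.8 ± 1.97 CPM per kilobase. By exon length Sdha and Sdhd lay closer than their SD, and so did Sdhc and Sdhb. Per kilobase of principal transcript they did not, with Sdha at 90.5 ± 4.90, Sdhd at 61.8 ± 3.10, Sdhb at 38.7 ± 3.86 and Sdhc at 20.7 ± 0.829 CPM.

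Complex III summed to 615, 564, 595 and 560.3 CPM. Uqcrb, a ubiquinone-binding subunit, led with 108 ± 5.31 CPM per kilobase, and 54.3% of its 31-base stretches also occur in other genes, so its count is uncertain. Uqcrh, the hinge protein that meets cytochrome c1, followed with 71.6 ± 4.63. The Rieske iron-sulphur protein Uqcrfs1 had 54.9 ± 2.72, the core protein Uqcrc2 51.0 ± 0.587 and the other core protein Uqcrc1 19.9 ± 0.594 CPM per kilobase. Uqcrc1 and Uqcrq (26.9 ± 4.02 CPM per kilobase) were the lowest of the complex. Per kilobase of principal transcript the gap between the core proteins was smaller. Uqcrc2 then had 68.7 ± 0.791, Uqcrfs1 54.9 ± 2.72, Uqcrc1 49.7 ± 1.49 and Uqcrq 32.3 ± 4.84 CPM.

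Complex IV summed to 753, 646, 724 and 635 CPM, so that both libraries numbered 1 were above both numbered 2. Per kilobase of exon Cox8a and Cox6b1 led it, as given above. Cox5b had 40.6 ± 1.83 and Cox5a 16.5 ± 3.32 CPM per kilobase; both encode nuclear subunits that bear on how the enzyme is regulated. The lowest of those that passed the filter were the tissue-specific isoforms Cox7a1 with 0.902 ± 0.0963 and Cox6b2 with 0.707 ± 0.446 CPM per kilobase. Per kilobase of principal transcript the highest were Cox7c at 154 ± 29.4, Cox8a at 146 ± 6.55, Cox6c at 144 ± 14.9 and Cox6b1 at 141 ± 5.57 CPM. Neighbours among these lay closer than their SD.

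Complex V summed to 2047, 1922, 2016 and 1896 CPM. The catalytic head is built of Atp5a1 (alpha) and Atp5b (beta), and Atp5c1 encodes the gamma subunit. Atp5a1 had 458, 461, 473 and 461 CPM, Atp5b 470, 462, 457 and 463 CPM, and Atp5c1 193, 198, 187 and 198 CPM. For each of these 3 genes the 4 libraries lay close together. Per kilobase Atp5c1 had 102 ± 2.81 CPM, and at the low end stood Atp5o, the stalk subunit OSCP, with 8.90 ± 0.763 and Atp5g1 with 8.33 ± 1.21 CPM. Per kilobase of principal transcript Atp5o had 21.0 ± 1.80 and Atp5g1 8.68 ± 1.26 CPM. Length weighs on Atp5g1, which has 4912 bases of exon for 408 coding bases. Before division by length it had a mean of 40.9 CPM, and Atp5o 17.6 CPM. Atp5o shares 46.4% of its 31-base stretches with other genes, and its 2 entries overlap.

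**Figure D2:**
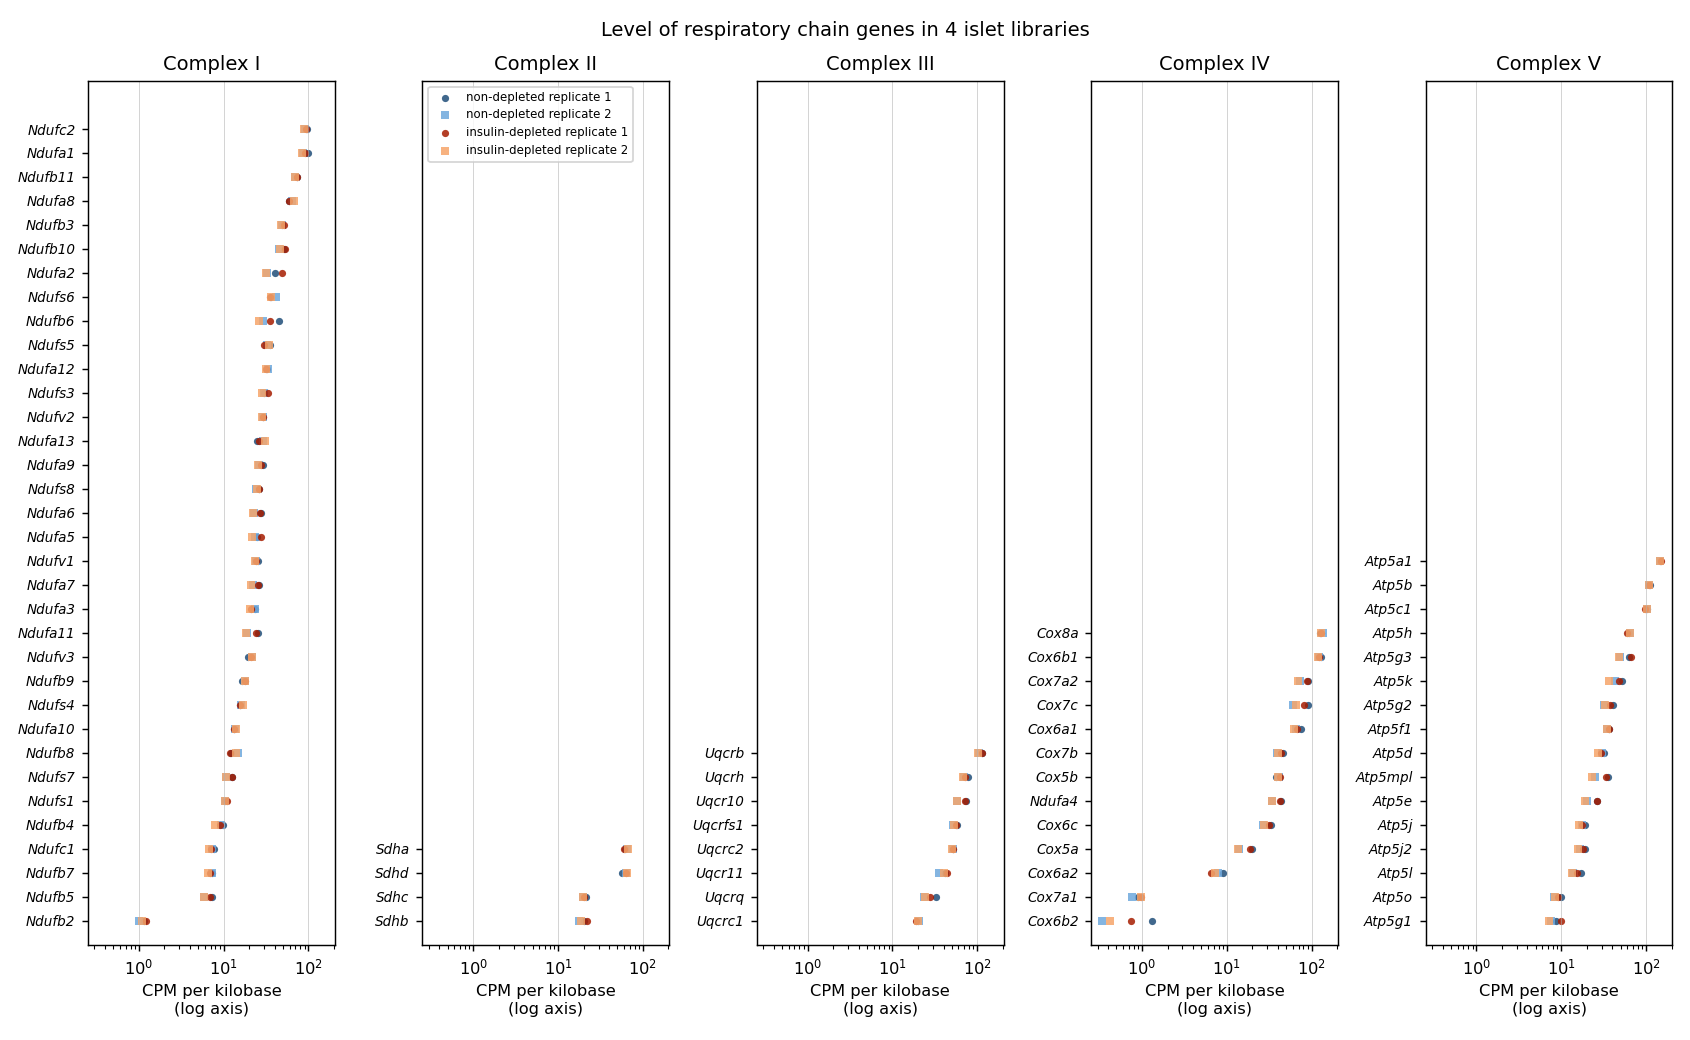
Level of the respiratory chain genes that passed the filter on low counts, all but 1 of them shown, in CPM per kilobase of annotated exon on a log axis, with 1 panel per complex and 1 marker per library (blue non-depleted, red and orange insulin-depleted, circles replicate 1, squares replicate 2). Markers of 1 gene mostly overlap, while genes of 1 complex spread widely, in complex IV from Cox6b2 at 0.707 to Cox8a at 129.

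Several subunits of complex IV exist as isoforms that other tissues use in place of the common form, and the islets held mostly the common forms. Cox8a, the general form of subunit 8, made up all of its family, with the muscle form Cox8b and the testis form Cox8c at 0 counts. A count of 0 allows up to 3 counts, which is 0.0618, 0.0516, 0.156 and 0.0463 CPM in the 4 libraries, for counting error only. The testis form Cox7b2 had 3 counts, all in non-depleted replicate 1, beside 1019 to 3117 counts of Cox7b. Cox6b2, a testis form, made up 1.01%, 0.277%, 0.616% and 0.353% of the per-kilobase sum with Cox6b1, from 16 to 71 counts. Cox6c2, annotated as a processed pseudogene, had 2, 0, 0 and 4 counts beside 2147 to 6401 of Cox6c.

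The 2 muscle isoforms with counts differed in share. Cox6a2, the heart and muscle form of subunit 6a, had 6.06, 5.33, 4.46 and 4.995 CPM, which was 10.6%, 10.6%, 8.79% and 10.7% of the per-kilobase sum with the general form Cox6a1. Cox7a1, the muscle form of subunit 7a, had 0.474, 0.413, 0.519 and 0.524 CPM, or 0.513%, 0.425%, 0.553% and 0.561% of its family. The 6 markers of skeletal and heart muscle together had 2.91, 2.46, 3.73 and 3.01 CPM beside these, and their part in the share of Cox6a2 was not tested. Cox6a2 lies on chromosome 7 (128205435 to 128206387, minus strand, GRCm38), and an exon of it overlaps one of the antisense gene Itgad. Use of strand in counting is not given in the sources used here, so reads of the pair cannot be told apart.

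Most counts of subunit 7a came from Cox7a2 and from Cox7a2l, a related gene outside the symbol pattern that acts in joining complexes III and IV. Cox7a2 made up 51.7%, 40.0%, 50.6% and 39.0% of the family per kilobase and Cox7a2l 47.8%, 59.6%, 48.8% and 60.4%. The order of these genes was therefore not the same in libraries numbered 1 and 2, in both groups. Cox4i1, also outside the pattern, took 98.9 to 99.4% of its family, with Cox4i2, a form linked to low oxygen, between 0.628% and 1.05%. Ndufa4l2, another gene linked to low oxygen, took 4.31 to 7.11% beside Ndufa4.

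The rotor ring of the ATP synthase is made of subunit c, which 3 genes encode: Atp5g1 (chromosome 11), Atp5g2 (chromosome 15) and Atp5g3 (chromosome 2). They are shown because their levels differ while the end of their coding sequence encodes the same protein. The last 225 coding bases before the stop codon, read from the GENCODE M21 transcripts of GRCm38, have capitals at the 57 positions where the genes differ.
Atp5g1: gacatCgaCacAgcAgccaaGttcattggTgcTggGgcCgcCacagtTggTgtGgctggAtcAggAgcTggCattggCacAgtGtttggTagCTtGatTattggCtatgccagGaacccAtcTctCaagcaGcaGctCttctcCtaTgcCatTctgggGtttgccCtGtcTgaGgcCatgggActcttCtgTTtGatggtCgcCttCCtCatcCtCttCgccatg
Atp5g2: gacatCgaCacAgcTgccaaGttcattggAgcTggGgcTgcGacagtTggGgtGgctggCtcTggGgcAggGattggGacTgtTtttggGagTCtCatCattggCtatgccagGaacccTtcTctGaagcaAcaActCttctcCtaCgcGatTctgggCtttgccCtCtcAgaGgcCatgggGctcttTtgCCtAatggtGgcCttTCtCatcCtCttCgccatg
Atp5g3: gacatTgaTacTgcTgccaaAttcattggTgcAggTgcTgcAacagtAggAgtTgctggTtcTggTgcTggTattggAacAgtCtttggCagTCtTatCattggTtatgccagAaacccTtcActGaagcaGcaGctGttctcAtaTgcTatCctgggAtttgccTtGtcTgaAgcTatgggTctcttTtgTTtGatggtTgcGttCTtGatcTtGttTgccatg

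Of the 57 differing positions 52 are the last base of a codon, and all 75 codons translate alike in the 3 genes. Identity was 84.9% between Atp5g1 and Atp5g2, 80.0% between Atp5g1 and Atp5g3 and 78.7% between Atp5g2 and Atp5g3, and no pair shared a 31-base stretch here. Atp5g3 had 137, 108, 144 and 104 CPM, Atp5g2 69.0, 53.5, 63.4 and 55.6 CPM, and Atp5g1 43.0, 37.4, 48.3 and 35.1 CPM. Per kilobase of exon Atp5g3 took 55.6%, 55.5%, 58.1% and 54.2% of the family, Atp5g2 36.6%, 36.0%, 33.3% and 37.7%, and Atp5g1 7.77%, 8.56%, 8.64% and 8.11%. The order was the same in every library, Atp5g3 first and Atp5g1 last. Atp5g2 is uncertain, since 87.7% of its 31-base stretches also occur in other genes.

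Insulin depletion was then compared with no depletion, which asks whether the step leaves transcripts other than insulin as they were. With edgeR's quasi-likelihood test on all 19723 genes that passed the filter, 2 genes were called at an adjusted p under 0.05, Ins1 and Ins2, which is 0.0101% of genes tested. None of the 77 respiratory chain genes was called, and DESeq2 and limma-voom also called 0. A fit with the replicate number as a second term called 0 of the 77 and 0.0456% of all genes. At an unadjusted p under 0.05, edgeR had 0 of the 77 and 0.416% of all genes. The smallest unadjusted p of a member was 0.107 and every adjusted p was 1.00. A p above the threshold does not show that levels were the same, so intervals are given. They come from the fit on group alone, so they also hold the difference between libraries numbered 1 and 2. The 95% interval of the fold change excluded a 2-fold difference for 75 of the 77 genes and a 1.5-fold difference for 66; Cox6b2 and Cox7a1, the isoforms with few counts, were the 2 wider ones.

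The mean summed level was 5226 ± 224 CPM in the non-depleted and 5162 ± 216 CPM in the insulin-depleted group (SD, n = 2 each), a ratio of 0.988. By complex the ratio of summed means was 0.992 for I, 1.02 for II, 0.980 for III, 0.972 for IV and 0.986 for V. Each difference was smaller than the SD between libraries of a group. On the log2 scale 59 of 77 genes (76.6%) lay within 0.1 of no difference, where 57.4% of other genes tested did. At a mean of 5 CPM or more the shares were 78.7% of members and 82.9% of other genes. At a mean level of 5 CPM or more the largest log2 fold change in size was that of Ndufb6, an accessory subunit of complex I, at -0.29 (95% interval -0.93 to 0.36). Its levels were 29.7, 19.3, 23.2 and 17.4 CPM, and the 2 libraries of a group differed more than the groups did. Within each replicate number the depleted library was the lower one. With the replicate number as a second term its log2 fold change was -0.25 (edgeR adjusted p = 0.947).

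The genes with the smallest p below 0 were Ndufa3, Atp5d, Ndufb4, Cox6a2 and Ndufb7. Ndufa3, a complex I accessory subunit on chromosome 7 (3617373 to 3620327, plus strand, GRCm38), had 23.9, 24.1, 21.3 and 20.7 CPM, so that the groups did not overlap. Its log2 fold change was -0.20 (SE 0.10, 95% interval -0.46 to 0.060, edgeR adjusted p = 1.00), and an exon overlaps one of the antisense gene Tfpt. Atp5d, the delta subunit of the ATP synthase, had 61.04, 58.6, 56.5 and 52.8 CPM and a log2 fold change of -0.14 (-0.36 to 0.094). Ndufb4 had 18.8, 18.0, 17.4 and 15.1 CPM (-0.19, interval -0.51 to 0.14), and shares 38.3% of its 31-base stretches with other genes. Cox6a2 stood at -0.27 (-0.75 to 0.21) and Ndufb7 at -0.12 (-0.37 to 0.13). All of these intervals include no difference.

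Above 0 the members with the smallest p values included Sdhd, Uqcr11, Cox5b and Sdhb. Sdhd had 70.5, 77.5, 77.4 and 79.1 CPM (0.077, interval -0.13 to 0.28) and Uqcr11 27.0, 22.5, 28.1 and 26.04 CPM (0.12, -0.22 to 0.47). In both, the groups overlapped. Cox5b stood at 0.068 (-0.15 to 0.28) and Sdhb at 0.081 (-0.26 to 0.43).

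The 2 depleted libraries were both under the 2 non-depleted ones for 11 of the 77 genes, against 9.33% of all genes tested: Ndufa3, Atp5d, Ndufb4, Cox6a2, Ndufb7, Ndufs6, Cox6b1, Ndufc1, Ndufa12, Ndufv1 and Uqcrc2. They were both above for 3 genes, Cox7a1 and Atp5a1 among them, against 10.2% of all genes. The groups overlapped for the other 63 genes tested. Uqcrc2, at 131, 132, 131 and 128 CPM, shows how small such a difference without overlap can be.

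Estimates lay below 0 for 53 of the 77 genes (68.8%), with a median log2 fold change of -0.045, where 51.1% of the other genes tested lay below 0 with a median of -0.0023. By complex 20 of 35 genes lay below 0 in complex I, 1 of 4 in II, 7 of 8 in III, 11 of 13 in IV and 13 of 16 in V, with medians of -0.027, 0.044, -0.033, -0.048 and -0.051. With the replicate number as a second term 53 of 77 also lay below 0. When 1 library was left out the count moved, and as same-numbered libraries went together, each such fit also carries their difference: without non-depleted replicate 1 it was 23 of 77 with a median of 0.039, and without insulin-depleted replicate 2 it was 31 with a median of 0.032. Without non-depleted replicate 2 it was 60 and without insulin-depleted replicate 1 it was 62.

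**Figure D3:**
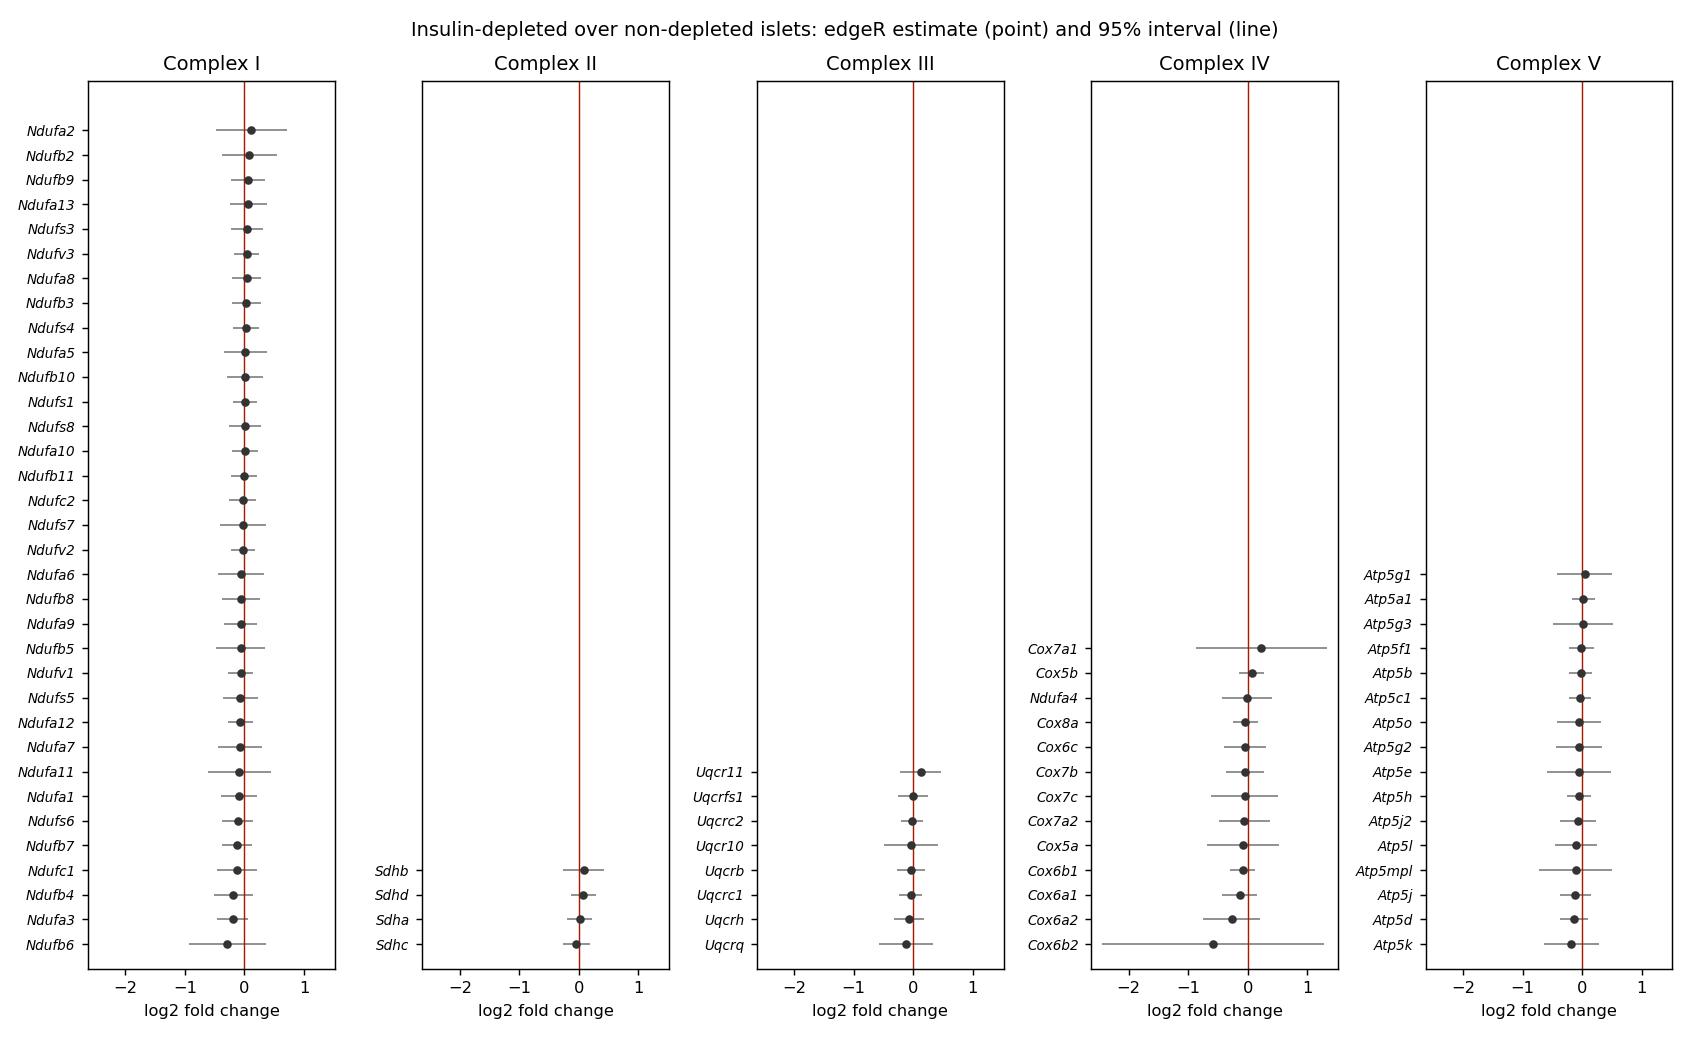
Log2 fold change of the respiratory chain genes tested, all but 1 of them shown, insulin-depleted over non-depleted islets, from edgeR (point) with its 95% interval (line), 1 panel per complex on a common axis. Every interval shown includes 0 (red line), and the widest belong to Cox6b2 and Cox7a1, the isoforms with few counts.

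Most of these genes are short: the principal transcript of the 77 tested had a median length of 838 bases, and 46 were under 1000 bases. The share below 0 went with this length. Among members with at least 5 CPM and a principal transcript under 700 bases, 27 of 29 lay below 0 (93.1%), with a median log2 fold change of -0.074. Of other protein-coding genes of the same length and level, 95 of 140 (67.9%) lay below 0, with a median of -0.037. Short genes in general thus leaned the same way as the short members.

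From 700 to under 1000 bases 8 of 15 members and 219 of 367 other genes (59.7%) lay below 0. From 1000 to under 2000 bases it was 16 of 24 members and 1147 of 2057 other genes (55.8%). At 2000 bases or more it was 1 of 7 members and 4354 of 8532 other genes (51.0%). None of these members was called, and the difference between members and other genes was not tested. With the replicate term the counts under 700 bases were 27 of 29 members and 94 of 140 other genes. They too moved when 1 library was left out. Without non-depleted replicate 1 the counts were 10 of 29 members and 50 of 140 other genes, and without insulin-depleted replicate 2 they were 13 and 52. Without non-depleted replicate 2 they were 27 and 109, and without insulin-depleted replicate 1 they were 26 and 112.

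**Figure D4:**
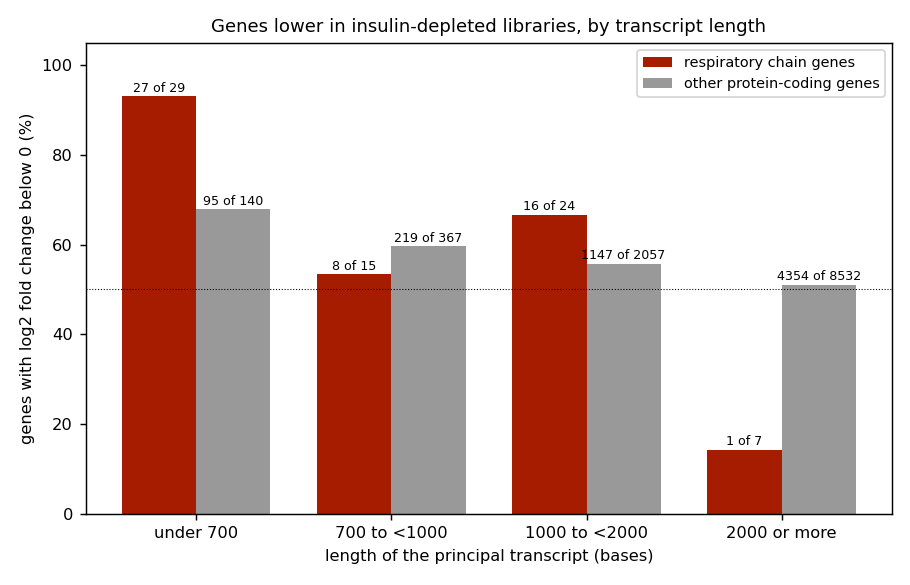
Share of genes with a log2 fold change below 0 (insulin-depleted over non-depleted), in 4 bands of principal transcript length, for respiratory chain genes (red) and other protein-coding genes (grey) at a mean level of 5 CPM or more; numbers over the bars are counts and the dotted line is at 50%. The share falls with length in the other genes from 67.9% to 51.0%, and is 93.1% for members under 700 bases.

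The 2 libraries of a group differed from each other in the same way in both groups. Of the 77 genes, 49 (63.6%) were higher in replicate 1 than in replicate 2 in both groups and 12 (15.6%) lower in both, where 31.3% of the other genes were higher and 40.4% lower in both. The median log2 ratio of replicate 1 to replicate 2 was 0.11 in the non-depleted and 0.10 in the insulin-depleted group, and -0.029 and -0.026 for the other genes. Over the 75 genes with at least 5 CPM the ratios of the groups went together (across genes of the same 4 libraries, Pearson's r = 0.796, Spearman's rho = 0.844), as they did over 11096 other protein-coding genes (r = 0.837, rho = 0.760).

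Among these genes the widest differences were in Ndufb6, Atp5mpl, Cox5a and Cox7c, at log2 ratios of 0.61 and 0.41, 0.49 and 0.52, 0.50 and 0.49, and 0.59 and 0.33 in the non-depleted and insulin-depleted groups. Atp5mpl, a small subunit of the ATP synthase, had 42.8, 30.3, 40.6 and 28.1 CPM. Cox5a had 41.6, 29.2, 39.7 and 28.1 CPM, and Cox7c, a small subunit of complex IV, 102, 67.5, 91.6 and 72.9 CPM. In each of these the libraries numbered 1 were high and those numbered 2 low, in both groups. Cox7c shares 55.7% of its 31-base stretches with other genes. Of the 12 that went the other way, Ndufb8 had 38.5, 46.2, 37.2 and 43.9 CPM, Ndufa13 31.3, 36.6, 32.8 and 38.1 CPM, and Sdha, given above, did likewise.

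The difference between replicates was again larger in short transcripts. Under 700 bases the median log2 ratio of replicate 1 to replicate 2 was 0.23 and 0.14 in the members and 0.18 and 0.15 in the other protein-coding genes, in the non-depleted and insulin-depleted groups. From 700 to under 1000 bases it was 0.12 and 0.17 in the members and 0.090 and 0.081 in the other genes. At 2000 bases or more it was -0.0089 and 0.038 in the members and -0.041 and -0.034 in the other genes. In the insulin-depleted group the members' median was thus highest from 700 to under 1000 bases. All 17 acinar markers are in the table, and their sum was 18799.7 and 18813 CPM in the libraries numbered 1 and 7777 and 7830.0 CPM in those numbered 2. The part of acinar RNA or of transcript length in the difference between replicates was not tested.

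**Figure D5:**
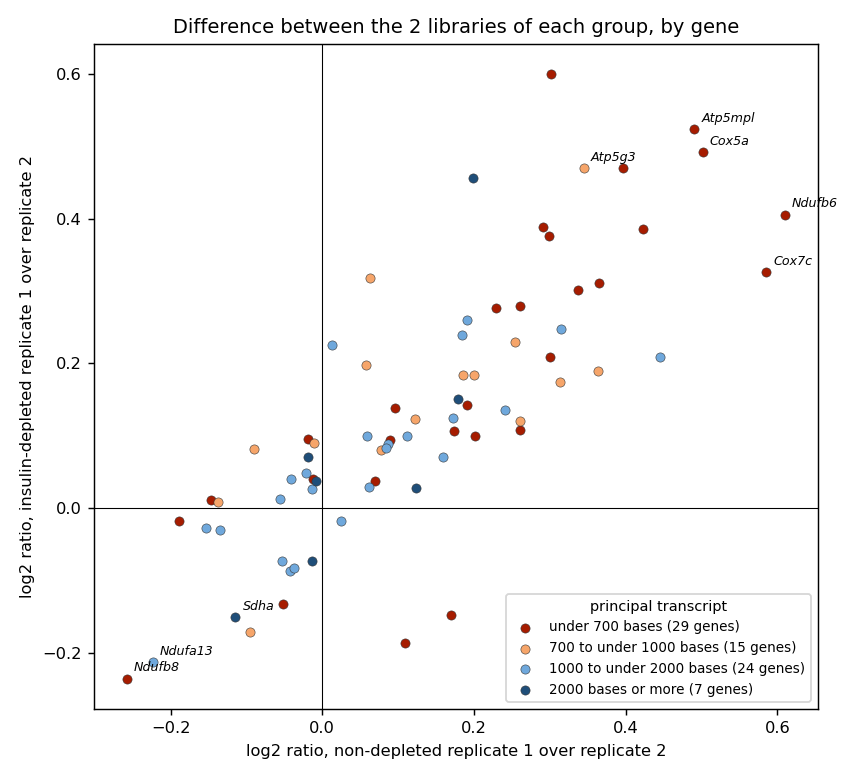
Log2 ratio of replicate 1 to replicate 2 for each respiratory chain gene at a mean level of 5 CPM or more, non-depleted on the x axis and insulin-depleted on the y axis, coloured by length of the principal transcript. Most genes lie to the upper right, where replicate 1 is higher in both groups, and the farthest, such as Ndufb6, Atp5mpl, Cox5a and Cox7c, have transcripts under 700 bases.

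Genes that act with the respiratory chain but lie outside the symbol pattern had no call either. Of 9 further subunits and isoforms, 4 lay above and 5 below 0, with 0 called. Cox4i1, the common subunit 4 of complex IV, had 139, 129, 134 and 132 CPM, and Cyc1, the cytochrome c1 of complex III, 46.9, 49.5, 46.3 and 45.6 CPM. Atpif1, which inhibits the ATP synthase when it runs in reverse, had 49.2, 52.2, 40.6 and 48.8 CPM (log2 fold change -0.18, interval -0.46 to 0.096). Cyc1 and Atpif1 were the 2 of the 9 in which both depleted values lay below both others, against 9.33% of all genes. In 2 more, Cox4i2 and Ndufa4l2, both depleted values lay above both others, against 10.2% of all genes.

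Of 51 assembly factors, which help to build the complexes, 50 were tested, with 25 above and 25 below 0, a median of 0.0040 and 0 called. Cox11, a copper chaperone of complex IV, had 9.83, 8.62, 7.16 and 6.71 CPM, without overlap of the groups. Its log2 fold change was -0.42 (95% interval -0.83 to -0.010, edgeR unadjusted p = 0.0461, adjusted p = 1.00). Cox11 was the 1 of 50 assembly factors with an edgeR unadjusted p under 0.05, against 0.416% of all genes. Both depleted values lay below both others for 6 of the 50, against 9.33% of all genes, and above for 3, against 10.2%. Lyrm7, 1 of these 3, acts in inserting the Rieske protein and had 3.03, 2.68, 4.25 and 3.33 CPM (0.39, -0.22 to 1.01). Pet117 had 0 counts in every library.

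The 12 regulators had 9 genes above and 3 below 0, and 0 called. Among genes of the factors whose motifs were searched, Nrf1 had 54.8, 52.5, 52.9 and 53.4 CPM, Gabpa 86.9, 85.3, 88.6 and 88.6 CPM and Yy1 159, 158, 168 and 165 CPM. Both depleted values were above both others for Gabpa, Yy1 and Polg, 3 of the 12, against 10.2% of all genes, and the interval of Yy1 was -0.11 to 0.25 (log2). Ppargc1a, a coactivator of mitochondrial genes, had 5.65, 10.99, 4.77 and 9.28 CPM, so that here the libraries numbered 2 were high in both groups. This was opposite in direction to most respiratory chain genes.

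The 13 mRNAs of mitochondrial DNA, which encode the other subunits of complexes I, III, IV and V, summed to 20832 ± 1760.0 CPM in the non-depleted and 20861 ± 1723 CPM in the insulin-depleted group (SD, n = 2 each), with 7 above and 6 below 0 and 0 called. Their sum was 19588 and 19642 CPM in the libraries numbered 1 and 22077 and 22079 CPM in those numbered 2. The nuclear-encoded members, at 5385 and 5314 CPM against 5068 and 5009 CPM, had the opposite order. mt-Co1, the catalytic subunit of complex IV, had 7949, 8938, 8081 and 9017 CPM. Per kilobase mt-Co1 had 5499 ± 362 CPM, while mt-Co2 had 28.5 ± 3.76, mt-Co3 21.7 ± 2.42 and mt-Atp6 18.2 ± 2.53 CPM (over 4 libraries). In these last 3 and in mt-Nd4l, 4 of the 13, both depleted values were above both others, against 10.2% of all genes tested. For mt-Co2 they were 18.6, 16.4, 22.4 and 20.6 CPM, a log2 fold change of 0.29 (-0.040 to 0.61). How reads that map to several places were counted is not given in the sources used here, and how far it sets these low values was not tested.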

How the data were processed

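The authors deposited 1 table of gene counts, whole numbers for 55536 genes in 4 libraries, with no normalization. The authors' deposited non-depleted columns are listed here with the unit expected count only because a unit check read the word size in their headers; they hold whole counts like the others, and rounding changed nothing. Per the submitters' processing notes, cutadapt 4.8, STAR 2.7.11b and the builds GRCm38 and mm10 were used, with no role stated. What counted the reads, with or without strand, and what was done with reads of several matching places is not given in the sources used here. Among genes with 2 to 9 counts, 80.0 to 84.0% had an even count, so intervals from counts may be too narrow. All identifiers and symbols matched GENCODE M21 (GRCm38), which gave lengths, overlaps and shared 31-base stretches.

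Levels are CPM of each library's total less Ins1 and Ins2 (48510880 and 58127371 counts in the non-depleted and 19278430 and 64858544 in the insulin-depleted libraries), divided by the length of all annotated exons where genes are compared. Counts were fitted over the whole table with edgeR 4.0.16 in R 4.3.3 (filterByExpr, TMM, glmQLFit robust, glmQLFTest on group alone, Benjamini-Hochberg adjustment over all genes, threshold 0.05). The biological coefficient of variation was 17.1%. The step was tested on simulated data, with libraries drawn independently of each other. That test held no difference shared by same-numbered libraries, so it does not bear on one. DESeq2 1.42.0, limma-voom (limma 3.58.1), other scalings, no filter, counts divided by 2, a replicate term and leaving out each library were alternatives. Log2 ratios of replicates used CPM plus 0.5.

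The members and the gene lists were chosen with earlier results of these data known. Named genes were, in each complex, the 2 highest and 2 lowest per kilobase, the isoform families, the 5 smallest p in each direction, core subunits, the 4 widest replicate differences at 5 CPM or more, and members that did not pass the filter; others are named for promoter motifs or groups without overlap, after their values were seen. Results of 1 member are not reported here by name, and it is left out of the plots that label every gene.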

Additional observations from a re-analysis of the deposited data

How the results depend on the processing

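No respiratory chain gene was called in any of the 10 alternative fits, and the 2 calls over all genes stayed 2 in 9 of them. With the replicate block it was 9 of 19723 genes (0.0456%): Ins1, Ins2, Hadh, Rps13, Rps27, Rps28, Rps29, Gm10925 and Gm28437. Same-numbered libraries deviated together (r = 0.846 over 11550 genes). Acinar sums went the same way, at 18799.7 and 18813 CPM in those numbered 1 and 7777 and 7830.0 CPM in those numbered 2. The labels name no animals, so whether same-numbered libraries share a source is not given. The main fit uses no pairing, so the difference between numbers counts as spread in its intervals. The members' median was -0.033 with the replicate block, and 53 of 77 lay below 0. It ran from -0.12 to 0.039 when 1 library was left out, and the number below 0 from 23 to 62. Among members under 700 bases that number ran from 10 to 27, and among other short genes from 50 to 112. Without 1 library the complex medians ran from -0.087 to 0.030 for I, 0.0049 to 0.028 for II, -0.091 to 0.062 for III, -0.20 to 0.12 for IV and -0.18 to 0.048 for V. The median of complex II was 0.048 with library sizes in place of TMM, 0.032 with limma-voom and 0.040 with no filter. The summed ratio was 1.03 on the scale of all counts, insulin included, and 0.958 to 1.02 without 1 library. The order per kilobase had Spearman's rho 0.728 with that per coding length and 0.780 with that per principal transcript. On the transcribed strand alone ETS letters were in 6.94% of member windows against 6.30% of those of other protein-coding genes, the GC box in 22.2% against 30.9% and TATA letters in 4.17% against 8.28%. With principal transcript lengths, an alternative chosen after seeing the data, Cox6a2 was 8.42% of its family and Atp5g1, Atp5g2 and Atp5g3 were 3.32%, 31.7% and 65.0%; as shares of counts Cox7a2 was 34.9%, Atp5g1 18.3% and Atp5g2 27.0%.

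Of 48 tested genes that the naming rule took, 19 turned sign by more than their SE when 1 library was left out, and none did under the other alternatives; adjusted p ran from 0.855 to 1.00. Their log2 fold changes then ran as follows: Atp5g1 from -0.21 to 0.27, Atp5g2 from -0.23 to 0.16, Atp5g3 from -0.25 to 0.24, Atp5mpl from -0.40 to 0.18, Atp5o from -0.19 to 0.11, Cox5a from -0.35 to 0.22, Cox6b2 from -1.26 to 0.72, Cox6c from -0.20 to 0.14, Cox7a2 from -0.26 to 0.14, Cox7b from -0.17 to 0.095, Cox7c from -0.32 to 0.29, Ndufa1 from -0.20 to 0.027, Ndufa4 from -0.18 to 0.19, Ndufb5 from -0.22 to 0.12, Ndufb6 from -0.57 to 0.076, Ndufs3 from -0.087 to 0.16, Sdhb from -0.065 to 0.22, Uqcrh from -0.17 to 0.031 and Uqcrq from -0.33 to 0.14. It was non-depleted replicate 1 whose absence turned 15 of them. The cause was not tested. A lone library left in a group was assumed to vary like the other group. Depth limits Cox6b2 and Cox7a1 most, at 10 to 71 counts.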
